A study of Mus musculus with 16 samples.

Results

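The 33 genes described here are markers of astrocytes: 21 that are used to identify the cell type and 12 that are known from reactive astrocytes, such as Gfap and Cd44. They were listed by symbol, with earlier results of these data known. All 33 were found among the 26371 genes of the table for basal cultures and the 55304 genes of the table for silenced cultures. Poly(A) RNA had been sequenced from primary cortical neurons of C57/BL6 mouse embryos (embryonic day 17.5 to 19.5), each replicate pooled from 1 litter. Every culture, controls included, had received an AAV with a short hairpin on day 8 in vitro and was collected on day 13, and samples were kept only where the knockdown of Nup153 had sufficed and the RNA was intact. The series asks how Nup153, a protein of the nuclear pore, acts on neuronal gene programmes. The 5 groups were silenced shNup153-2 (n = 3), silenced shControl (n = 3), basal shNup153-2 (n = 2), basal shNup153-1 (n = 2) and basal shControl (n = 4). shNup153-1 and shNup153-2 are hairpins against Nup153 and shControl is the control hairpin. Silenced cultures had been given tetrodotoxin at 1 to 2 µM for 24 hours, which blocks action potentials, and D-AP5 at 100 µM for 6 hours, which blocks NMDA receptors.

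Astrocytes take up glutamate and potassium that neurons release, couple to one another through gap junctions, and make glutamine, lactate and lipoproteins for their neighbours. Cultures made from embryonic cortex consist mainly of neurons, and astrocytes arise in them from progenitors that were carried over at plating. In reactive astrocytes, intermediate filament genes such as Gfap and Vim and a set of surface and secreted proteins rise, in part through gp130 receptors and STAT3. In RNA from whole cultures, fewer cells of a type and less RNA per cell cannot be told apart.

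Libraries held 26863535 to 56299817 counts. Nup153 stood at 10.6, 13.4 and 9.38 CPM (counts scaled to 1000000 per library) in silenced shNup153-2 and at 64.2, 52.1 and 61.8 CPM in silenced shControl. It stood at 13.5 and 11.6 CPM in basal shNup153-2, 17.1 and 28 CPM in basal shNup153-1, and 94.5, 52.9, 77.8 and 56.8 CPM in basal shControl, so every knockdown library lay below every control library of its state. Because samples had been kept only where the knockdown sufficed, this separation is no independent check of the hairpins. In the deposited basal table the shNup153-1 counts stood beside the wrong symbols in the lower part: their correlation with shControl across genes dropped to 0.092 on the last 9952 lines, against 0.976 above. All 33 genes lie in the upper part, and comparisons with shNup153-1 used the upper part alone. Markers of the labelled cell type were present throughout, since 12 neuron markers averaged 8.46 to 9.32 log2 CPM over all libraries. None of the 8 defining astrocyte markers was at 0 throughout any group, and 4 microglia markers summed to 0.177 to 1.69 CPM.

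Promoters are shown for members on which the results below turn, because 4 of them, Vim, Acsbg1, Fabp7 and S100b, were higher together in basal shNup153-1, and because Gfap varied the most between control libraries. The windows run from 250 bases before to 50 bases after the annotated start, from RefSeq (GRCm38.p6), and 28 of the 33 genes had at least 1 window there. Clu, the other gene of that set, had no entry. Capitals mark TTGGC or its reverse complement GCCAA, a short site bound by nuclear factor I (NFI), a family of gliogenic factors. In Gfap they mark TTCNNNGAA, the core site of STAT factors.
Vim (chr2:13574061-13574360, plus strand): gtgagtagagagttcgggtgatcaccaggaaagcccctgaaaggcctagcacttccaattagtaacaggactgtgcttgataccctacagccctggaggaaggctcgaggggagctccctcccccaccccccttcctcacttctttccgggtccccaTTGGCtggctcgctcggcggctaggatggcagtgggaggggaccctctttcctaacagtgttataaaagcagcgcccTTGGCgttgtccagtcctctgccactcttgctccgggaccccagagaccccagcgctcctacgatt
Acsbg1 (chr9:54661836-54662135, minus strand): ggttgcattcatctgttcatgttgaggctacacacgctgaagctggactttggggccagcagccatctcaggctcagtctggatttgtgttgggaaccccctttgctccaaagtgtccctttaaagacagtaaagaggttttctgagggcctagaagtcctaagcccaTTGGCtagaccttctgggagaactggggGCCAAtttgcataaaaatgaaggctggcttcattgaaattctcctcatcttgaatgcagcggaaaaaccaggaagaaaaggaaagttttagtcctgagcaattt
Fabp7 (chr10:57784673-57784972, plus strand): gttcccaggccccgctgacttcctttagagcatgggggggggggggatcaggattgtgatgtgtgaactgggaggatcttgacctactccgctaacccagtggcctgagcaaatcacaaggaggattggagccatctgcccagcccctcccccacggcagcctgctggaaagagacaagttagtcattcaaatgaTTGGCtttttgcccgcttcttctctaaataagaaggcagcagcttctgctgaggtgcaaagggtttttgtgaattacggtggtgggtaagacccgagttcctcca
S100b (chr10:76253586-76253885, plus strand): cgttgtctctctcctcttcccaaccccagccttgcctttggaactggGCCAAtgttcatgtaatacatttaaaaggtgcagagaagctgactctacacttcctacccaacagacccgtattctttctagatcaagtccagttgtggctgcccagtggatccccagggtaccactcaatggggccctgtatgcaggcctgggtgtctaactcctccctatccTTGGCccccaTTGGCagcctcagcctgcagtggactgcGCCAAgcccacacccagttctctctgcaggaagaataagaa
Gfap (chr11:102897151-102897450, minus strand): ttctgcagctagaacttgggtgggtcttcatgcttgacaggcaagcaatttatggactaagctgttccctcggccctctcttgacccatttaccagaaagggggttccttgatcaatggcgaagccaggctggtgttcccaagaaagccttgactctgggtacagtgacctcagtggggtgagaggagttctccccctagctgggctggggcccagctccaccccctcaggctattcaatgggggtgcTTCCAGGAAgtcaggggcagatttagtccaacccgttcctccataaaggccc

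The 4 windows from genes higher with shNup153-1 held 2, 2, 1 and 4 copies of TTGGC, read on both strands. This 5-letter word is common: it occurred in 46.7% of all 32851 windows in the RefSeq table, and in 21 of the 34 windows of the listed genes. TTCNNNGAA occurred in 8.3% of all windows and in 6 of the 34, among them Gfap, Acsbg1, Aldoc and Slc1a3. TGANTCA, the site of AP-1 factors, occurred in 7.81% of all windows and in 3 of the 34 (Cp, Gja1 and Osmr). These matches describe letters in the windows and do not show binding.

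Levels per kilobase of exon in basal shControl spanned a wide range. Apoe, the main apolipoprotein of astrocytes, was the highest at 612 ± 216 CPM per kb (SD, n = 4). Fabp7, a fatty acid binding protein of radial glia and young astrocytes, and Glul, the glutamine synthetase, followed at 130 and 124 CPM per kb, a difference smaller than the spread of either. Gfap ranked 13th at 14.6 ± 16.3 CPM per kb and Aqp4, the water channel of astrocyte endfeet, 14th at 14.3 ± 10.4 CPM per kb, again closer than their SDs. The reactive genes Lcn2, Aspg and Steap4 closed the order at 0.104, 0.0763 and 0.0265 CPM per kb. Steap4, a metalloreductase, had no count in 8 of the 14 libraries and at most 12, and was left out of every test by the filter on low counts.

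**Figure D1:**
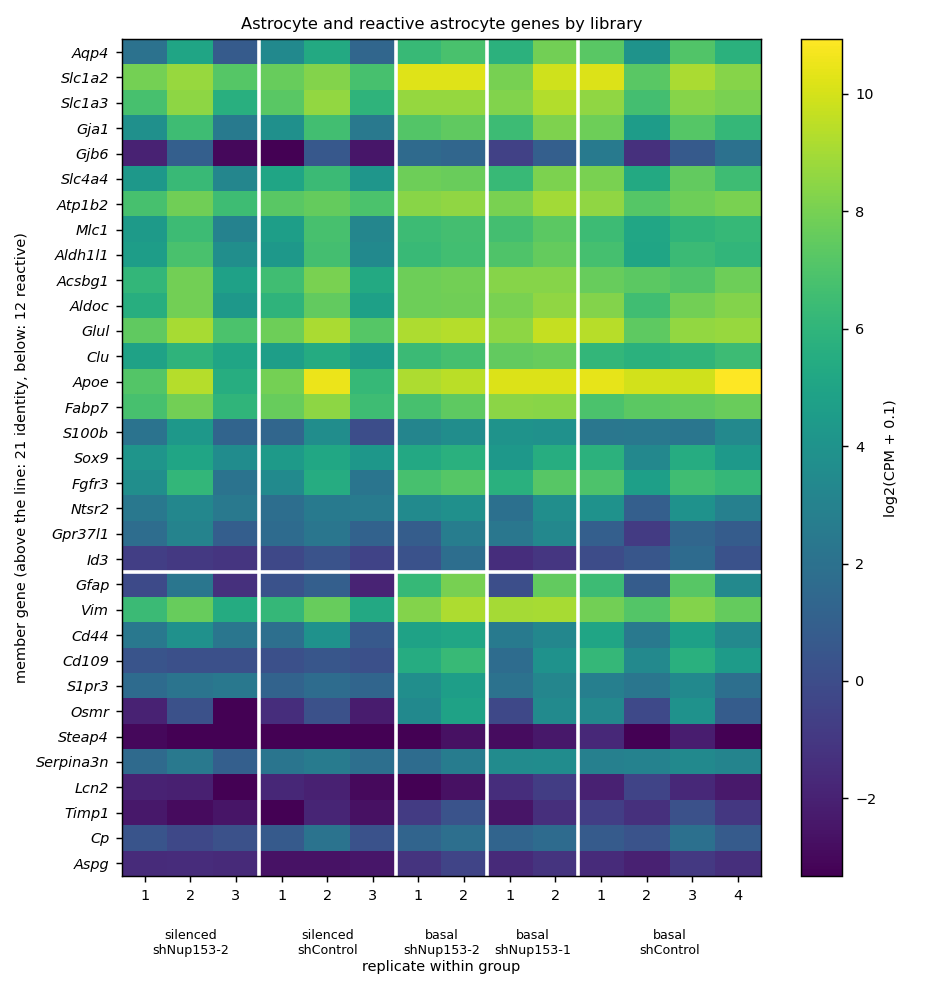
Levels of the 33 genes in the 14 libraries, as log2(CPM + 0.1), with identity genes above the horizontal line and reactive genes below it. Columns of 1 group differ from one another as strongly as groups do: replicate 2 is the brightest column in both silenced groups, and replicate 2 of basal shControl is the darkest of its 4.

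The glutamate transporters, channels and gap junction genes moved together between libraries of 1 group. Slc1a2, the main glutamate transporter of mature astrocytes, had 250, 421 and 146 CPM in silenced shNup153-2, 198, 317 and 111 CPM in silenced shControl, 1188 and 1216 CPM in basal shNup153-2, 260 and 942 CPM in basal shNup153-1, and 1163, 158, 548 and 327 CPM in basal shControl. Both basal shNup153-2 libraries lay above all 4 controls, while those of shNup153-1 lay within the controls' range. Slc1a3, the glutamate transporter of radial glia and astrocytes, had 111, 360 and 51.6 CPM in silenced shNup153-2, 154, 386 and 61.4 CPM in silenced shControl, 413 and 415 CPM in basal shNup153-2, 296 and 621 CPM in basal shNup153-1, and 384, 103, 321 and 268 CPM in basal shControl. Its lowest library was replicate 3 in both silenced groups and replicate 2 in basal shControl, as for Slc1a2.

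Aqp4 had 4.05, 33.5 and 1.63 CPM in silenced shNup153-2, 10.6, 39.6 and 2.48 CPM in silenced shControl, 77 and 116 CPM in basal shNup153-2, 57.3 and 242 CPM in basal shNup153-1, and 154, 16.1, 132 and 54.2 CPM in basal shControl. Gja1, the connexin 43 of astrocyte gap junctions, had 14.2, 90.6 and 5.52 CPM in silenced shNup153-2, 13.9, 96.9 and 5.26 CPM in silenced shControl, 138 and 176 CPM in basal shNup153-2, 87.9 and 288 CPM in basal shNup153-1, and 220, 23.3, 144 and 70.6 CPM in basal shControl. For both genes knockdown and control libraries overlapped in each state, and the highest library of basal shControl exceeded the lowest 9.58-fold for Aqp4 and 9.45-fold for Gja1. The other transport genes, the bicarbonate transporter Slc4a4, the sodium pump subunit Atp1b2 and the membrane protein Mlc1, ranged from 39.7 to 267 CPM, 143 to 385 CPM and 34.8 to 88.1 CPM in basal shControl. Gjb6, the connexin 30, reached at most 5.68 CPM in any library and had no count in silenced shControl replicate 1, where 3 counts would correspond to 0.0831 CPM.

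The metabolic and lipid genes come next. Acsbg1, an acyl-CoA synthetase, had 68.2, 235 and 28.7 CPM in silenced shNup153-2, 93.6, 262 and 40 CPM in silenced shControl, 216 and 235 CPM in basal shNup153-2, 319 and 325 CPM in basal shNup153-1, and 193, 161, 133 and 217 CPM in basal shControl. Clu, the secreted chaperone clusterin, had 29.8, 62.3 and 33.5 CPM in silenced shNup153-2, 25.4, 42.8 and 23.1 CPM in silenced shControl, 84.7 and 106 CPM in basal shNup153-2, 179 and 198 CPM in basal shNup153-1, and 68.9, 55.5, 64.7 and 86.3 CPM in basal shControl. In both genes the shNup153-1 libraries stood above all other libraries of the series. Fabp7 had 109, 235 and 64.8 CPM in silenced shNup153-2, 194, 357 and 92.1 CPM in silenced shControl, 111 and 166 CPM in basal shNup153-2, 354 and 341 CPM in basal shNup153-1, and 118, 160, 174 and 200 CPM in basal shControl. Its shNup153-1 libraries again lay above all basal libraries, and only silenced shControl replicate 2 came as high.

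Apoe had 140, 647 and 46.8 CPM in silenced shNup153-2, 243, 1473 and 74.4 CPM in silenced shControl, 580 and 702 CPM in basal shNup153-2, 1178 and 1166 CPM in basal shNup153-1, and 1348, 993, 943 and 1947 CPM in basal shControl. Both shNup153-2 libraries lay below all 4 controls at basal state. Aldh1l1, the folate enzyme used as a marker of all astrocytes, had 24.2, 113 and 13.3 CPM in silenced shNup153-2, 19.5, 101 and 10.8 CPM in silenced shControl, 81.6 and 99.6 CPM in basal shNup153-2, 127 and 188 CPM in basal shNup153-1, and 107, 32.9, 84.5 and 67.6 CPM in basal shControl. Its shNup153-1 libraries exceeded all controls. Glul and Aldoc, an aldolase of astrocytes, ranged from 170 to 661 CPM and 92.5 to 317 CPM in basal shControl.

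Among receptors, regulators and cytosolic markers, S100b, a calcium-binding protein of astrocytes that oligodendrocyte-lineage cells also make, had 4.23, 19.4 and 2.33 CPM in silenced shNup153-2, 2.48, 12.4 and 0.927 CPM in silenced shControl, 8.9 and 12.4 CPM in basal shNup153-2, 16 and 14.7 CPM in basal shNup153-1, and 4.93, 5.05, 4.64 and 10.4 CPM in basal shControl. The shNup153-1 libraries lay above every control, and control replicate 4 stood above the other 3 controls. Fgfr3, a fibroblast growth factor receptor, and Sox9, a gliogenic transcription factor, ranged from 26.1 to 123 CPM and 10 to 58 CPM in basal shControl. Genes on the opposite strand overlap 13.9% of the exon bases of Fgfr3 and 11% of those of Aldh1l1, and no source used here says whether counting used the strand. The receptors Ntsr2 and Gpr37l1 and the inhibitor of differentiation Id3 were low, at 1.9 to 15.5 CPM, 0.466 to 2.52 CPM and 0.875 to 3.06 CPM in basal shControl.

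Of the reactive genes with filament or surface roles, Gfap, the intermediate filament of astrocytes (chromosome 11, 102887336 to 102900912, mm10), spread the most. It had 0.833, 4.64 and 0.301 CPM in silenced shNup153-2, 1.09, 1.86 and 0.164 CPM in silenced shControl, 73.7 and 256 CPM in basal shNup153-2, 0.979 and 184 CPM in basal shNup153-1, and 87.8, 1.65, 147 and 10.4 CPM in basal shControl. These correspond to 6 to 9626 counts per library, and the 4 control libraries differed up to 89.4-fold. Replicate 1 of shNup153-1 and replicate 2 of shControl had levels like those of silenced cultures, although both were labelled basal. Osmr, the oncostatin M receptor, divided the basal libraries likewise, with 10.7 and 29.5 CPM in shNup153-2, 0.753 and 11 CPM in shNup153-1, and 9.84, 0.789, 15.2 and 1.65 CPM in shControl.

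Cd109, a surface protein anchored by a lipid, had 1.2, 1.03 and 1.03 CPM in silenced shNup153-2, 1.03, 1.31 and 1.01 CPM in silenced shControl, 45.5 and 78 CPM in basal shNup153-2, 3.2 and 15.5 CPM in basal shNup153-1, and 71.2, 10.4, 53 and 22.2 CPM in basal shControl. Its 6 silenced libraries were nearly alike and all lay below every basal one. Vim, the vimentin filament that radial glia and many other cells also make, had 82.5, 196 and 43.1 CPM in silenced shNup153-2, 71.8, 197 and 38.6 CPM in silenced shControl, 314 and 568 CPM in basal shNup153-2, 523 and 537 CPM in basal shNup153-1, and 236, 137, 312 and 191 CPM in basal shControl. Every basal knockdown library exceeded every basal control, the shNup153-2 replicate 1 by the least.

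Cd44, the hyaluronan receptor, had 5.21, 14.7 and 4.64 CPM in silenced shNup153-2, 3.57, 15.4 and 1.5 CPM in silenced shControl, 29.7 and 34 CPM in basal shNup153-2, 5.87 and 9.7 CPM in basal shNup153-1, and 32.8, 5.38, 27 and 10.3 CPM in basal shControl. S1pr3, a sphingosine-1-phosphate receptor, had 3.05, 4.36 and 5.09 CPM in silenced shNup153-2, 2.24, 3.23 and 2.37 CPM in silenced shControl, 13.2 and 25.1 CPM in basal shNup153-2, 4.03 and 9.21 CPM in basal shNup153-1, and 6.88, 4.77, 10.6 and 3.63 CPM in basal shControl. The shNup153-2 libraries at basal state were the highest of the series for S1pr3.

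The secreted reactive genes were low. Serpina3n, a serine protease inhibitor with close paralogs that reads may not tell apart, had 2.94, 5.38 and 1.86 CPM in silenced shNup153-2, 4.63, 6.06 and 3.63 CPM in silenced shControl, 3.2 and 6.34 CPM in basal shNup153-2, 11.5 and 12.2 CPM in basal shNup153-1, and 7.41, 7.89, 10.6 and 8.57 CPM in basal shControl. Lcn2, the iron-binding lipocalin, had 0.162, 0.142 and 0 CPM in silenced shNup153-2, 0.206, 0.152 and 0.0273 CPM in silenced shControl, 0 and 0.0532 CPM in basal shNup153-2, 0.264 and 0.491 CPM in basal shNup153-1, and 0.143, 0.645, 0.21 and 0.0932 CPM in basal shControl. Lcn2 had at most 18 counts, so its levels rest on single reads.

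Timp1, an inhibitor of metalloproteinases, had 0.0926, 0.0354 and 0.0753 CPM in silenced shNup153-2, 0, 0.183 and 0.0546 CPM in silenced shControl, 0.464 and 1.17 CPM in basal shNup153-2, 0.0753 and 0.276 CPM in basal shNup153-1, and 0.536, 0.287, 1.05 and 0.404 CPM in basal shControl. Aspg, an asparaginase, had 0.231, 0.248 and 0.226 CPM in silenced shNup153-2, 0.059, 0.0609 and 0.0818 CPM in silenced shControl, 0.348 and 0.666 CPM in basal shNup153-2, 0.226 and 0.338 CPM in basal shNup153-1, and 0.232, 0.143, 0.419 and 0.28 CPM in basal shControl. Highest counts were 44 for Timp1 and 25 for Aspg, and a level of 3 counts corresponds to 0.0533 to 0.112 CPM over the 14 libraries. Cp, the copper carrier ceruloplasmin, ranged from 0.744 to 4.17 CPM over all libraries.

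**Figure D2:**
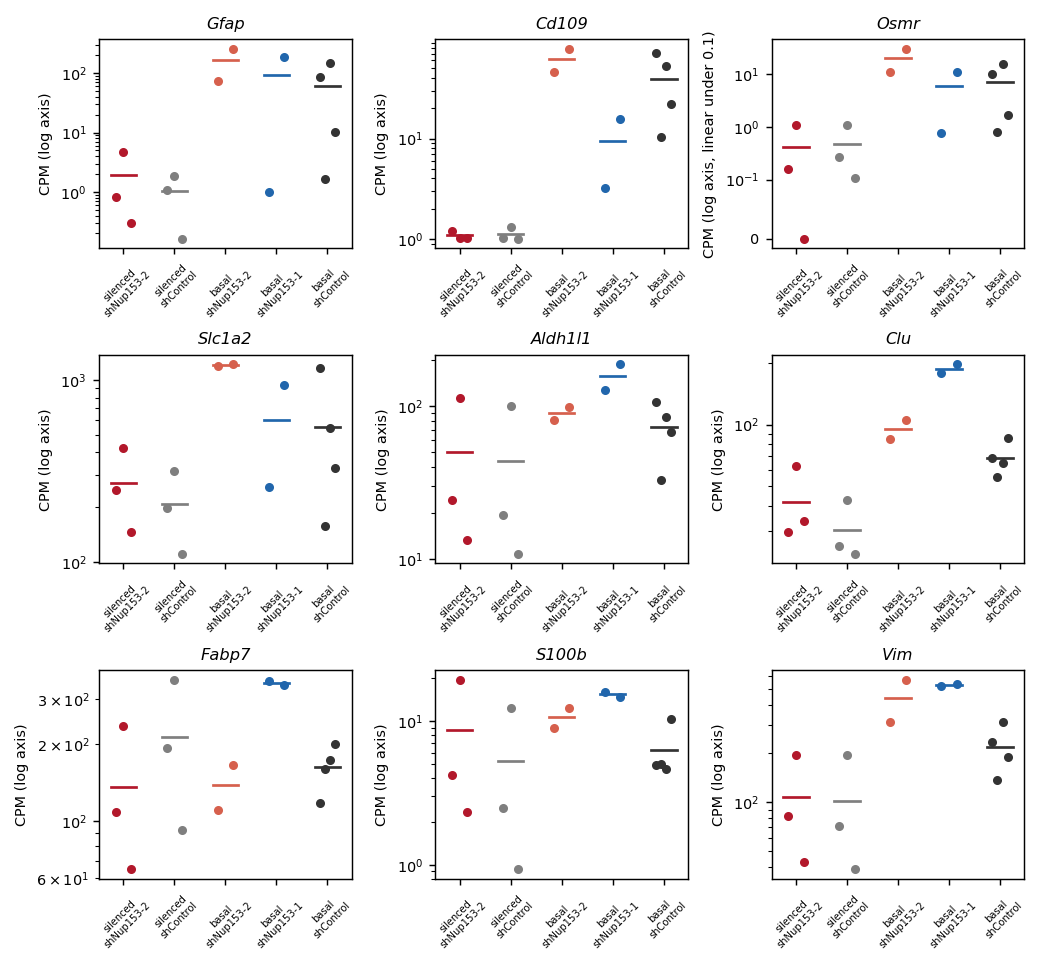
CPM on log axes for 9 of the genes, with a point per library and a bar at the mean of each group. Gfap and Osmr fall into high and low libraries within the basal groups, Cd109 is near 1 CPM in all silenced libraries, and Clu, Fabp7, S100b and Vim lie above all 4 basal controls in both shNup153-1 libraries.

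The median spread among replicates was larger for these genes than over all genes in each group, by the most in silenced cultures and the least in basal shNup153-2. Over the 25 of 33 genes with a mean above 1 log2 CPM, the median SD was 1.13 log2 units in silenced shNup153-2 and 1.19 in silenced shControl, against 0.17 and 0.18 over all 11944 genes at that level. In basal groups the median SD was 0.23 with shNup153-2, 0.73 with shNup153-1 and 0.84 with shControl, against 0.11, 0.28 and 0.30 over all genes. The share of all genes that varied more than the members' median was 1.83% in silenced shNup153-2, 1.74% in silenced shControl, 21% in basal shNup153-2, 7.92% in basal shNup153-1 and 4.3% in basal shControl. In basal shNup153-2 the sets differed: the median SD was 0.63 over the reactive genes at that level and 0.20 over the identity genes. There 1.33% and 25.1% of all genes varied more. The order of libraries was shared by most members. Replicate 2 was the highest for 26 of the 33 genes in silenced shNup153-2 and for 29 in silenced shControl, and replicate 3 was the lowest for 26 and 27. Of all 11944 genes, 37% and 40.2% were highest in replicate 2, and 36.3% and 32.8% were lowest in replicate 3.

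At basal state, replicate 2 was the higher library for 31 of the 33 genes with shNup153-2 and for 30 with shNup153-1. The shares over all 11944 genes were 50.1% and 50.3%. In basal shControl, replicate 2 was the lowest for 25 of the 33 genes (75.8%), against 31.1% of all 11944 genes. Genes that varied little there were Serpina3n, Clu, Acsbg1 and Fabp7, with highest-to-lowest ratios of 1.43, 1.55, 1.63 and 1.7, followed by Apoe, S100b and Vim at 2.06, 2.24 and 2.28. The share of each library's counts that the 33 genes held was 0.123%, 0.378% and 0.0707% in silenced shNup153-2, 0.148%, 0.452% and 0.0781% in silenced shControl, 0.49% and 0.612% in basal shNup153-2, 0.453% and 0.786% in basal shNup153-1, and 0.61%, 0.231%, 0.496% and 0.492% in basal shControl.

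Identity and reactive genes did not vary in a fixed ratio. Mean identity levels were 4.27, 6.0 and 3.36 log2 CPM in silenced shNup153-2 and 4.39, 5.96 and 3.59 log2 CPM in silenced shControl, while mean reactive levels were -0.01, 0.55 and -0.62 log2 CPM and -0.21, 0.66 and -0.77 log2 CPM in the same libraries. In basal cultures mean identity levels were 6.17 and 6.55 log2 CPM with shNup153-2, 5.88 and 6.83 log2 CPM with shNup153-1, and 6.42, 4.71, 6.10 and 5.94 log2 CPM with shControl. The matching reactive levels were 2.04 and 3.00 log2 CPM, 0.83 and 2.43 log2 CPM, and 2.37, 0.87, 2.78 and 1.31 log2 CPM. Silenced replicate 2 of either hairpin thus had an identity level within the range of basal controls and a mean reactive log2 level below all of them. Summed as CPM, the reactive genes reached 229 and 231 CPM in these libraries, above the 170 CPM of basal shControl replicate 2. The other basal controls had 250 to 581 CPM. The log2 mean weighs Steap4, Lcn2, Timp1 and Aspg, which had few counts, like the rest. Gfap minus the identity mean was -4.44, -3.77 and -4.85 log2 units in silenced shNup153-2, -4.19, -5.02 and -5.78 in silenced shControl, 0.03 and 1.45 in basal shNup153-2, -5.83 and 0.70 in basal shNup153-1, and 0.04, -3.94, 1.10 and -2.55 in basal shControl.

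**Figure D3:**
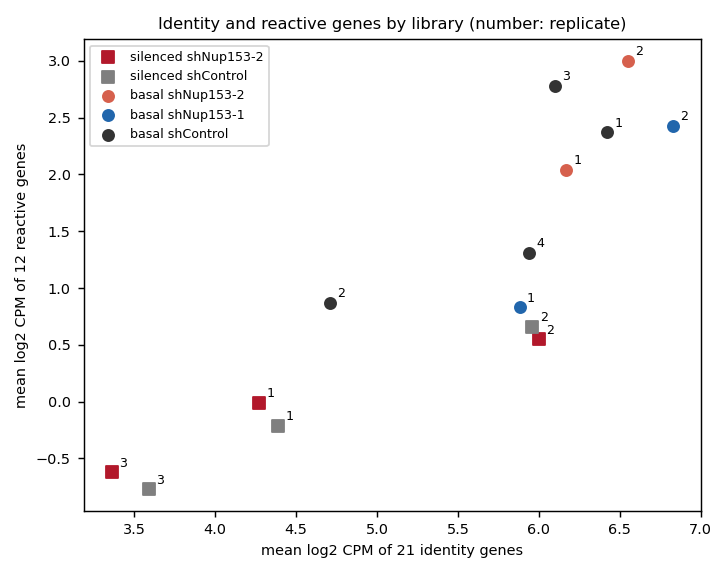
Mean log2 CPM of the 12 reactive genes (vertical) against that of the 21 identity genes (horizontal), 1 point per library with its replicate number. The 6 silenced libraries lie below every basal one on the vertical axis, and both silenced replicates 2 reach the identity level of basal controls. The vertical gap is narrow, at 0.66 log2 CPM in silenced shControl replicate 2 against 0.83 log2 CPM in basal shNup153-1 replicate 1. It does not hold for the summed CPM of the reactive genes.

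With shNup153-1 at basal state, 5 of the 32 genes tested rose and none fell: Clu, Fabp7, Acsbg1, S100b and Vim. DESeq2 called 8 higher and 2, Id3 and Cd109, lower, but it also called 3146 of all genes, against 1971 in edgeR. In edgeR, over all 14529 genes tested, 6.52% rose, 7.05% fell and 13.6% did either. Clu (chromosome 14, 65968483 to 65981547, mm10) averaged 189 ± 13.3 CPM (SD, n = 2) with shNup153-1 and 68.9 ± 12.9 CPM (SD, n = 4) with shControl, a log2 fold change of 1.43 (SE 0.20, edgeR adjusted p = 0.00472). Fabp7 averaged 347 ± 9.49 CPM with shNup153-1 and 163 ± 34.4 CPM with shControl (1.07, SE 0.24, edgeR adjusted p = 0.0239), and Acsbg1 322 ± 4.62 CPM and 176 ± 36.5 CPM (0.85, SE 0.21, edgeR adjusted p = 0.0329). S100b averaged 15.4 ± 0.961 CPM with shNup153-1 and 6.26 ± 2.77 CPM with shControl (1.27, SE 0.35, edgeR adjusted p = 0.0444), and Vim 530 ± 10.1 CPM and 219 ± 73.9 CPM (1.25, SE 0.34, edgeR adjusted p = 0.0428). Between control libraries these 5 had highest-to-lowest ratios of 1.55 to 2.28, whereas Aqp4 (0.72, SE 0.80), Gja1 (0.69, SE 0.74) and Slc1a2 (0.11, SE 0.73) had errors as large as their differences. Gfap, at 0.56 (SE 1.67, edgeR adjusted p = 0.868), had the largest error of the 32. In the mouse genome (mm10), Fabp7 spans 57784881 to 57788450 and S100b 76253853 to 76261159 on chromosome 10, Acsbg1 54604877 to 54661870 on chromosome 9 and Vim 13573927 to 13582826 on chromosome 2.

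Libraries of shNup153-1 lay above all controls for 9 of the 32 genes tested, namely these 5 with Mlc1, Aldh1l1, Gpr37l1 and Serpina3n, and below all for Id3 and Timp1, whereas 18.2% of all genes tested lay above and 17.9% below. Gpr37l1 had a log2 fold change of 2.18 (SE 0.64, edgeR adjusted p = 0.0564) and Id3 one of -2.33 (SE 0.74, edgeR adjusted p = 0.0714), both at low levels. Aldh1l1 had 1.09 (SE 0.39, edgeR adjusted p = 0.102). The median log2 fold change was 0.57 over the 21 identity genes and 0.05 over the 11 reactive genes tested, against -0.02 over all genes, and 10 of 32 members had an unadjusted p under 0.05, against 29.5% of all genes. Within the reactive genes the signs differed: Vim rose, while Cd109 (-2.09, SE 0.86) and Cd44 (-1.30, SE 0.67) did not pass the test. Without either shNup153-1 replicate only Clu passed, at an edgeR adjusted p of 0.0353 without replicate 1 and 0.0278 without replicate 2. The others then had values of 0.125 and 0.0813 for Fabp7, 0.139 and 0.116 for Acsbg1, 0.162 and 0.134 for Vim and 0.189 and 0.12 for S100b in the same edgeR test. Leaving out a control changed calls as well: S100b had an edgeR adjusted p of 0.0825, 0.0588 and 0.0786 without shControl replicates 1, 2 and 3, and Vim one of 0.0653 and 0.0884 without replicates 1 and 4. Gpr37l1 passed without shControl replicate 2 (edgeR adjusted p = 0.0458).

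Markers of the oligodendrocyte lineage moved with these genes. Of 6 precursor markers tested with shNup153-1, 5 rose and none fell (median log2 fold change 3.45), and of 7 oligodendrocyte markers 5 rose and none fell (median 2.12). Over all genes 6.52% rose and 7.05% fell (median -0.02). Precursor markers summed to 658 and 665 CPM in basal shNup153-1, against 179 and 290 CPM in basal shNup153-2 and 73 to 211 CPM in basal shControl. Pdgfra, a receptor that defines these precursors, averaged 73.5 CPM with shNup153-1 and 3.05 CPM with shControl (4.57, SE 0.72, edgeR adjusted p = 0.00647). Fabp7, S100b and Vim are also made by cells of that lineage, as background knowledge. The part of these cells in the higher levels was not tested.

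With shNup153-2 at basal state no member passed the test of 31, while 5.91% of all 19682 genes rose, 3.64% fell and 9.55% did either. DESeq2 called S1pr3 and Vim higher and Apoe lower, and limma-voom called S1pr3 higher. Over all genes DESeq2 called 3624 and limma-voom 1998, against 1880 in edgeR. The 4 members with an unadjusted p under 0.05, against 28.9% of all genes, were S1pr3, Apoe, Vim and Serpina3n. S1pr3 averaged 19.2 ± 8.43 CPM (SD, n = 2) with shNup153-2 and 6.47 ± 3.07 CPM (SD, n = 4) with shControl (1.54, SE 0.42, edgeR adjusted p = 0.0573), and passed without shControl replicate 3 (edgeR adjusted p = 0.0329). Apoe averaged 641 ± 86.1 CPM with shNup153-2 and 1308 ± 463 CPM with shControl (-1.06, SE 0.35, edgeR adjusted p = 0.0904). Vim had a log2 fold change of 0.98 (SE 0.34, edgeR adjusted p = 0.107) and Serpina3n one of -0.89 (SE 0.33, edgeR adjusted p = 0.122). Log2 fold changes were above 0 for 26 members and below 0 for 5, with a median of 0.50 against -0.03 over all genes. Gfap averaged 165 CPM with shNup153-2 and 61.8 CPM with shControl, and its difference of 1.40 had an SE of 1.26 (edgeR adjusted p = 0.48). Among the members tested, libraries stood above all controls for Slc1a2, Slc1a3, Vim and S1pr3, where 24.6% of all genes tested did so, and below all for Apoe and Serpina3n, where 21.8% did. Lcn2, which had too few counts to be tested, lay below all controls too.

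Both hairpin comparisons share the 4 control libraries, so their values are given side by side. Vim stood at 0.98 with shNup153-2 and 1.25 with shNup153-1, Clu at 0.43 and 1.43, S100b at 0.73 and 1.27, Acsbg1 at 0.33 and 0.85, and Fabp7 at -0.27 and 1.07. In the direct test of shNup153-2 against shNup153-1, 1 of 32 members was lower and none higher, where 1.67% of all 14529 genes were lower, 2.81% higher and 4.48% either. That member was Fabp7, at 138 ± 39 CPM with shNup153-2 and 347 ± 9.49 CPM with shNup153-1 (SD, n = 2 each), a log2 fold change of -1.34 (SE 0.29, edgeR adjusted p = 0.0421). Clu at -1.0 (SE 0.25, edgeR adjusted p = 0.057) and Serpina3n at -1.32 (SE 0.35, edgeR adjusted p = 0.0675) did not pass, nor did Cd109 at 2.70 (SE 0.96, edgeR adjusted p = 0.13) or Cd44 at 2.02 (SE 0.75, edgeR adjusted p = 0.143), whereas DESeq2 called 3 members higher and 3 lower. Of all genes DESeq2 called 2114, against 651 in edgeR, and 25.8% had an unadjusted p under 0.05 in edgeR.

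With shNup153-2 above shNup153-1 in both libraries stood 8 members, against 33.2% of all genes. They were the reactive genes Cd44, Cd109, S1pr3, Timp1 and Aspg and the identity genes Slc1a2, Gjb6 and Id3. Below stood 9, against 30.1% of all genes. They were the identity genes Aldh1l1, Acsbg1, Aldoc, Clu, Apoe, Fabp7 and S100b and the reactive genes Serpina3n and Lcn2. The medians were 0.82 over the reactive and -0.27 over the identity genes. The Fabp7 difference lost significance when any of the 4 knockdown libraries was left out, with edgeR adjusted p-values of 0.213 and 0.0712 without shNup153-1 replicates 1 and 2, and 0.304 and 0.14 without shNup153-2 replicates 1 and 2. All 7 oligodendrocyte markers tested had log2 fold changes below 0 with shNup153-2 against shNup153-1 (median -2.87), of which 4 passed in edgeR, and so had all 6 precursor markers (median -3.24), of which 2 passed. Of all genes, 1.67% passed as lower in that comparison. The part of these markers in the Fabp7 difference was not tested.

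**Figure D4:**
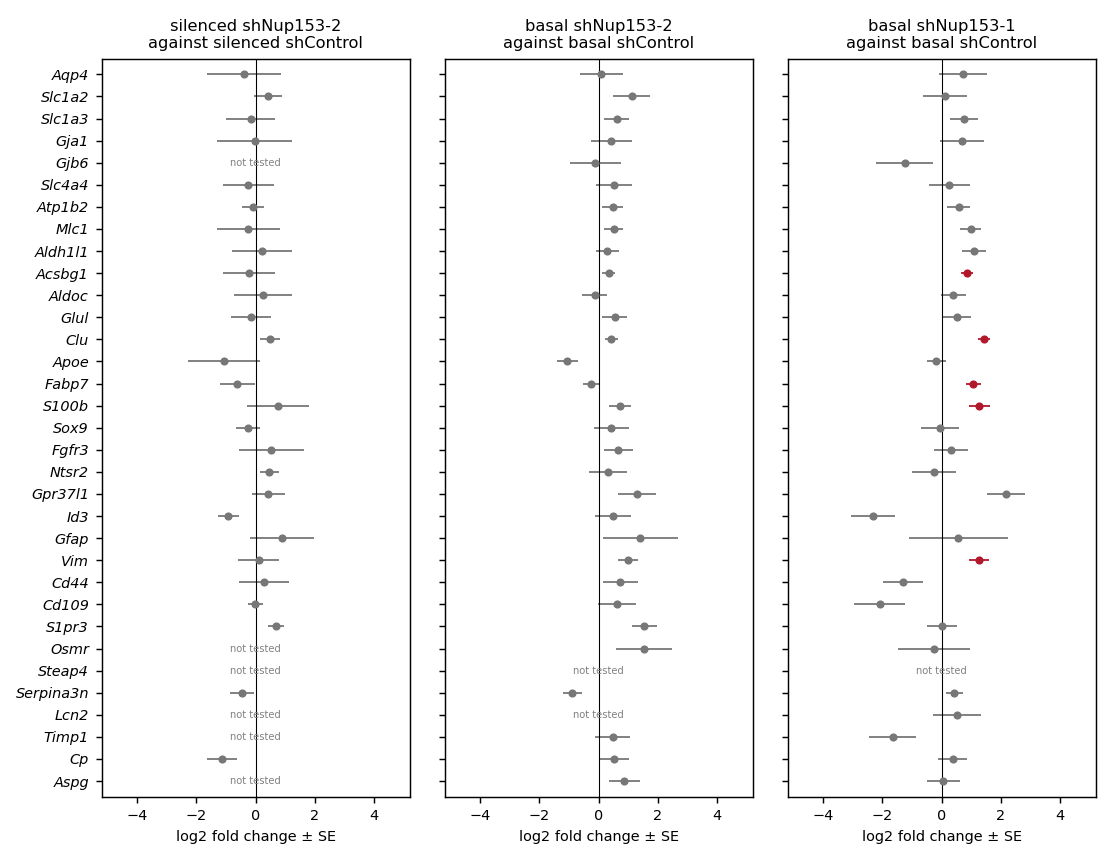
Log2 fold change with its SE for each gene in the 3 comparisons of a knockdown hairpin with shControl. Red points passed a Benjamini-Hochberg adjusted p of 0.05 in edgeR, grey points did not, and genes removed by the filter on low counts are written as not tested.

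In silenced cultures none of the 27 members tested passed with shNup153-2, in edgeR, DESeq2 or limma-voom, while 1.61% of all 18965 genes rose, 1.83% fell and 3.45% did either. Id3 (-0.93, SE 0.35, edgeR adjusted p = 0.2) and S1pr3 (0.69, SE 0.26, edgeR adjusted p = 0.202) were the members with an unadjusted p under 0.05, against 19.7% of all genes. Gjb6, Osmr, Steap4, Lcn2, Timp1 and Aspg had too few counts to be tested. The median was -0.04 over the members and 0.01 over all genes. Id3, at 0.532, 0.425 and 0.351 CPM with shNup153-2 and 0.767, 1.16 and 0.627 CPM with shControl, was the only one of the 27 members tested whose libraries did not overlap, where 13.9% of all genes tested lay below and 13.2% above. Aspg, which had too few counts to be tested, also lay higher in all 3 shNup153-2 libraries than in all shControl libraries. Libraries with the same replicate number deviated together in this table, with correlations of 0.52, 0.75 and 0.82 over 11944 genes, so the difference within each number is also given.

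Fitted with the replicate number as a block, 5 of the 27 members tested rose and 3 fell with shNup153-2 in silenced cultures. Over all 18965 genes 11.7% rose, 10.3% fell and 21.9% did either (4161 genes, against 654 without the block), and nothing particular to the members is read from their count. Apoe fell by 0.80, 1.19 and 0.67 on the log2 scale in the 3 pairs (-0.87, SE 0.10, edgeR adjusted p = 0.00214). Fabp7 fell by 0.84, 0.60 and 0.51 (-0.63, SE 0.08, edgeR adjusted p = 0.00295), and Acsbg1 fell by 0.46, 0.16 and 0.48 (-0.34, SE 0.09, edgeR adjusted p = 0.0346). S100b rose by 0.76, 0.64 and 1.28 (0.88, SE 0.16, edgeR adjusted p = 0.0101), Clu by 0.23, 0.54 and 0.54 (0.46, SE 0.09, edgeR adjusted p = 0.0124) and Slc1a2 by 0.33, 0.41 and 0.40 (0.40, SE 0.07, edgeR adjusted p = 0.00719). S1pr3 rose by 0.44, 0.43 and 1.08 (0.69, SE 0.20, edgeR adjusted p = 0.0448) and Aldh1l1 by 0.31, 0.16 and 0.30 (0.27, SE 0.07, edgeR adjusted p = 0.0386). Lipid genes thus moved in both directions, with the apolipoprotein Apoe lower and the chaperone Clu higher in every pair. Gfap was lower in 1 pair and higher in 2 (0.64, SE 0.38, edgeR adjusted p = 0.278), and Gja1 (0.02, SE 0.08), Vim (0.14, SE 0.07) and Cd109 (-0.01, SE 0.25) did not pass.

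Reactive genes were lower in silenced than in basal shControl cultures: 5 of the 10 tested fell and none rose. Timp1 and Aspg, among these 5, had only 0, 6 and 2 counts and 2, 2 and 3 counts in silenced shControl. Both passed the filter on low counts through their basal libraries alone, so a rise could hardly have been seen for them. Of all 31 members tested 6 fell and none rose, where 6.27% of all 20926 genes fell, 6.09% rose and 12.4% did either. The libraries of the 2 states come from separate tables, and state and table cannot be told apart. Gfap averaged 1.04 ± 0.849 CPM (SD, n = 3) in silenced and 61.8 ± 68.9 CPM (SD, n = 4) in basal shControl, a log2 fold change of -5.96 (SE 1.53, edgeR adjusted p = 0.0263), although basal replicate 2, at 1.65 CPM, lay within the silenced range. Cd109 (chromosome 9, 78615546 to 78716253) averaged 1.12 ± 0.168 CPM in silenced and 39.2 ± 27.9 CPM in basal shControl (-5.19, SE 0.63, edgeR adjusted p = 0.000747), with no overlap. The other falls were Timp1 (-2.87, SE 0.77, edgeR adjusted p = 0.0321), Aspg (-1.99, SE 0.52, edgeR adjusted p = 0.027), S1pr3 (-1.36, SE 0.37, edgeR adjusted p = 0.0334) and, among identity genes, Clu (-1.23, SE 0.29, edgeR adjusted p = 0.0174). DESeq2 called 8 members lower, limma-voom 3 (Clu, Cd109 and Timp1) and an edgeR fit of these 2 groups alone 2 (Clu and Cd109), and none of these called a member higher. Gfap thus did not pass in limma-voom or in the fit of 2 groups. Over all genes DESeq2 called 3690, limma-voom 2506 and the fit of 2 groups 1255.

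Among the 31 members tested, silenced shControl lay below basal shControl in all libraries for Clu, Cd109, S1pr3, Serpina3n, Timp1 and Aspg, where 10.8% of all genes did so, and above for none, where 12.8% did. Timp1 and Aspg were tested only because of their basal libraries. The median log2 fold change was -1.76 over the 10 reactive genes tested and -0.95 over the 21 identity genes, against -0.03 over all genes, and 28 of 31 members were below 0. Of the members, 11 had an unadjusted p under 0.05, against 28% of all genes. Osmr at -3.91 (SE 1.24, edgeR adjusted p = 0.061), Aqp4 at -2.40 (SE 1.10, edgeR adjusted p = 0.179) and Slc1a2 at -1.45 (SE 0.60, edgeR adjusted p = 0.136) did not pass. Fabp7 (0.34, SE 0.45), Gpr37l1 (0.97, SE 0.61) and Cp (0.12, SE 0.49) were the members above 0.

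**Figure D5:**
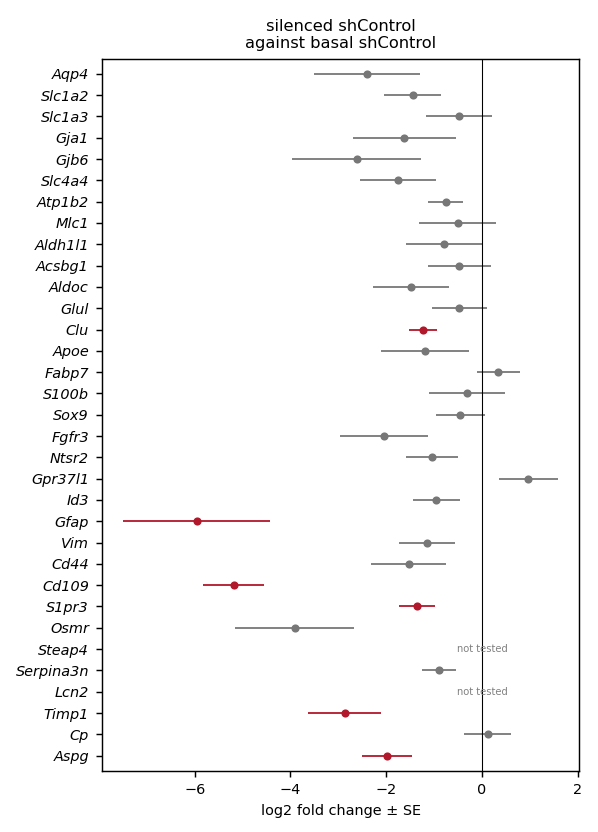
Log2 fold change with its SE for each gene in silenced shControl against basal shControl. Red points passed a Benjamini-Hochberg adjusted p of 0.05 in edgeR; 28 of the 31 genes tested lie below 0, with Gfap and Cd109 the farthest.

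Leaving out single libraries changed which of these falls passed. Cd109 passed without any of the 7 libraries, with edgeR adjusted p-values of 0.000187 to 0.00707. Gfap did not pass without basal replicate 3 (edgeR adjusted p = 0.0562) or without silenced replicates 1, 2 or 3 (0.101, 0.0541 and 0.0971). Clu did not pass without silenced replicates 1 or 3 (edgeR adjusted p = 0.0876 and 0.0836). S1pr3 did not pass without basal replicates 1 or 3 (edgeR adjusted p = 0.0658 and 0.0836) or silenced replicates 1, 2 or 3 (0.129, 0.0506 and 0.12). Timp1 did not pass without basal replicates 1 or 3 (edgeR adjusted p = 0.0538 and 0.0781) or silenced replicates 1 or 3 (0.101 and 0.119). Aspg did not pass without basal replicates 3 or 4 (edgeR adjusted p = 0.0674 and 0.0502) or silenced replicates 1, 2 or 3 (0.104, 0.0738 and 0.0773). Without basal replicate 2, the control library with low Gfap, 9 members passed, Slc1a2 (edgeR adjusted p = 0.0404), Ntsr2 (0.0224) and Osmr (0.0266) among them. That library was the lowest of its group for 25 of the 33 genes, so leaving it out raised the basal level of most members. Over all genes 1069 to 3426 passed with a library left out, against 2586 with all libraries. Nothing particular to the members is read from the 9. Vim and Cd44 passed without silenced replicate 2 (edgeR adjusted p = 0.0495 and 0.0399).

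Other cell markers moved between the states too, where 6.09% of all 20926 genes rose and 6.27% fell. Cycling genes rose in silenced shControl for 5 of 6 (median 4.09), and summed to 11.4 to 82.1 CPM there against 2.23 to 9.04 CPM in basal shControl. Precursor markers rose for 3 of 6 (median 2.33), with sums of 210 to 394 CPM in silenced and 73 to 211 CPM in basal shControl. Interneuron markers fell for 5 of 8, with sums of 471 to 516 CPM in silenced and 773 to 1391 CPM in basal shControl. The part of such differences between the cultures in the lower reactive genes was not tested.

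Whether shNup153-2 acted differently in the 2 states was tested directly, and none of 31 members (1 at an unadjusted p under 0.05) and 0% of 20926 genes passed in edgeR, whether higher, lower or either, while 11.4% of genes (2393) had an unadjusted p under 0.05. DESeq2 called 283 genes and no member, and limma-voom 1 gene and no member. The difference between the effects, silenced minus basal, had a median of -0.58 over the members and 0.01 over all genes. Cp, at -1.71 (SE 0.76, edgeR adjusted p = 0.422), was the member with an unadjusted p under 0.05. For Gfap the difference was -0.55 with an SE of 1.94, an error larger than the difference. This comparison was not fitted with a block for replicate number. The deviations that silenced libraries of equal number shared therefore stayed in its errors and limit what it could detect.

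Astrocyte genes outside the list were counted in the same way. Of 30 such genes, 4 rose and none fell with shNup153-1 (median 0.72), where 6.52% of all genes rose and 7.05% fell (median -0.02). These were the metallothionein Mt3 (1.19, SE 0.21, edgeR adjusted p = 0.00932), the protease Htra1 (1.29, SE 0.25, edgeR adjusted p = 0.013), the phospholipase Pla2g7 (1.00, SE 0.24, edgeR adjusted p = 0.0303) and Kcnj10, the potassium channel Kir4.1 (1.47, SE 0.40, edgeR adjusted p = 0.0455). With shNup153-2 at basal state 1 rose and 2 fell (median 0.51), where 5.91% of all genes rose and 3.64% fell (median -0.03). The metallothioneins Mt1 (-1.95, SE 0.38, edgeR adjusted p = 0.0207) and Mt2 (-2.53, SE 0.56, edgeR adjusted p = 0.0319) fell, and the BMP antagonist Chrdl1 rose (1.15, SE 0.28, edgeR adjusted p = 0.041). In silenced cultures, fitted without the replicate block, none of 29 passed with shNup153-2, where Mt2 stood at -3.30 (SE 1.16, edgeR adjusted p = 0.176). Between the states 28 of 30 lay below 0 (median -1.04), and 1, the matrix protein Sparc, passed (-3.26, SE 0.72, edgeR adjusted p = 0.0141). Over all genes 12.4% passed between the states (median -0.03).

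Of 16 genes of glial fate and radial glia, Tnc, the matrix protein tenascin C, fell in each knockdown comparison, at -2.02 (SE 0.21, edgeR adjusted p = 0.00915) in silenced shNup153-2, -1.01 (SE 0.25, edgeR adjusted p = 0.0439) in basal shNup153-2 and -1.39 (SE 0.24, edgeR adjusted p = 0.00909) in basal shNup153-1. Nfix, an NFI factor, averaged 518 CPM in silenced shNup153-2 and 264 CPM in silenced shControl (0.99, SE 0.16, edgeR adjusted p = 0.0276). At basal state Nfix averaged 550 CPM with shNup153-2 and 92.1 CPM with shControl (2.55, SE 0.33, edgeR adjusted p = 0.00633). Hes5, a Notch target of radial glia, averaged 0.259 CPM with shNup153-2, 0.899 CPM with shNup153-1 and 7.92 CPM with shControl at basal state, log2 fold changes of -4.95 (SE 1.03, edgeR adjusted p = 0.0262) and -3.16 (SE 0.88, edgeR adjusted p = 0.0472). Sox8 rose with shNup153-1 (1.45, SE 0.35, edgeR adjusted p = 0.0296).

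No gene of the inflammatory A1-type state passed as higher in a knockdown comparison in edgeR without the replicate block. Fkbp5, a glucocorticoid-induced co-chaperone counted in that set, fell in each: -0.77 (SE 0.10, edgeR adjusted p = 0.018) in silenced shNup153-2, -1.45 (SE 0.21, edgeR adjusted p = 0.00777) in basal shNup153-2 and -1.47 (SE 0.18, edgeR adjusted p = 0.00307) in basal shNup153-1. It was the only one of 7, 10 and 10 tested that passed. Of all genes, 3.45%, 9.55% and 13.6% passed in the same comparisons. Of 9 A2-type genes tested in each basal comparison, Ptgs2 rose with shNup153-2 (2.80, SE 0.53, edgeR adjusted p = 0.0197). Tgm1 fell with shNup153-2 (-3.66, SE 0.86, edgeR adjusted p = 0.0376), at a mean of 0.0348 CPM against 0.497 CPM with shControl. A level of 3 counts corresponds to 0.0681 and 0.0812 CPM in these shNup153-2 libraries, so the Tgm1 level there rests on single reads. Sphk1 rose with shNup153-1 (2.10, SE 0.51, edgeR adjusted p = 0.0303). Ptgs2 is also an activity-induced gene of neurons, as background knowledge. None of the gp130 and STAT3 genes passed in a knockdown comparison in edgeR without the block, with 10, 11 and 11 tested. The fit with the block was not examined for these lists. Between silenced and basal shControl 5 of 10 A1-type genes fell and none rose (median -0.89), none of 9 A2-type genes passed, and of 11 gp130 and STAT3 genes the cytokine Lif fell (-3.92, SE 0.96, edgeR adjusted p = 0.0223). Over all genes 6.27% fell and 6.09% rose there (median -0.03).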

How the data were processed

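Per the submitters' processing notes, the authors checked reads with FastQC and counted them per gene with featureCounts 2.0.1 on mm10. The 2 deposited tables hold raw counts per gene symbol, and no source used here names the aligner or annotation. Descriptions of knockdown samples name the control virus, so groups were taken from the titles. Among the basal columns 2 carry 1 name and were left out, which left 14 libraries of 26863535 to 56299817 counts.

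Each comparison was tested across all genes with the edgeR 4.0.16 quasi-likelihood F test in R 4.3.3 (filterByExpr with a minimum count of 10, TMM scaling, Benjamini-Hochberg adjustment over all genes tested, threshold 0.05). Basal shNup153-1 against basal shControl, and shNup153-2 against shNup153-1, used the 3 basal groups over the upper lines, where all columns are in register. Basal shNup153-2 against basal shControl used both groups over all lines, the silenced comparison its own table, and the comparison of states and the difference between effects a joint fit of 4 groups without shNup153-1. The SE of a log2 fold change was its size divided by the root of F. CPM use full library totals scaled by TMM over the 14 libraries, log2 CPM have a prior count of 2, and floors and intervals cover counting error only. Exon lengths and coordinates are those of GENCODE M21 (mm10).

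DESeq2 1.42.0, limma-voom (limma 3.58.1), other scaling, no filter, other sample sets, a block for replicate number and leaving out each library were alternatives. The block was used only for comparisons within a state. The fit was tested on simulated data. Equal replicate numbers paired silenced libraries by their residuals (0.52, 0.75 and 0.82), and the labels do not say what a number shares. Members and lists were chosen with earlier results of these data known. Members past the threshold in any comparison and a fixed set of 12 were given in every library. Apoe, Osmr, Id3, Sparc, Lif and Pdgfra were named after their values were seen.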

Additional observations from a re-analysis of the deposited data

Results flagged for a closer look

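S100b in basal shControl stood out for 1 library: replicate 4 had 10.4 CPM, against 4.64 to 5.05 CPM in the other 3. The gap to the nearest library took up 0.896 of the group's range on the log2 scale, above Dixon's 95% limit for 4 values, and 35 values were examined in this way, of which chance passes about 1 in 20. Without that library S100b with shNup153-1 had a log2 fold change of 1.66 (edgeR adjusted p = 0.0123), against 1.27 with it.

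Fabp7 differed between the hairpins in a direct test, at 111 and 166 CPM in basal shNup153-2 against 354 and 341 CPM in basal shNup153-1 (log2 fold change -1.34, SE 0.29, edgeR adjusted p = 0.0421). Against shControl it stood at -0.27 with shNup153-2 and at 1.07 with shNup153-1. The oligodendrocyte precursor markers, which differed in the same direction, summed to 179 and 290 CPM in basal shNup153-2 and to 658 and 665 CPM in basal shNup153-1, and their part in the result was not tested.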

How the results depend on the processing

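No called member changed direction in any alternative run. For basal shNup153-1 the 5 members higher became 8 in DESeq2 (2 lower), 2 with 2 groups fitted, 0 with a replicate block and 1 to 5 when a library was left out, and all genes called, 1971, became 3146, 1203, 0 and 356 to 2050. For basal shNup153-2, members higher numbered 2 in DESeq2 (1 lower), 1 in limma-voom, 8 with the block and 0 to 1 with a library left out, and all genes called, 1880, became 3624 in DESeq2 and 15 to 2211 with a library left out. The block run for basal shNup153-2 called 2145 of all genes and limma-voom 1998. In silenced cultures 654 genes became 1845 in DESeq2, 4161 with the block (5 members higher, 3 lower) and 4 to 659 with a library left out. Between the states the 6 members lower became 3 in limma-voom, 2 with 2 groups fitted and 1 to 9 with a library left out, and 2586 genes became 1255 with 2 groups and 1069 to 3426 with a library left out. The difference between effects passed for 3 genes without the filter, 283 in DESeq2, 1 in limma-voom and 0 to 12 with a library left out. Between hairpins, DESeq2 called 3 members higher and 3 lower and 2114 genes; the 1 member lower became 0 with the block or any library left out, and 651 genes became 0 with the block and 0 to 500. The causes were not tested. Where leaving out a library leaves 1 in a group, that library is assumed to vary like the rest.

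Replicate numbers are not shown to pair basal libraries: same-number correlations were -0.70 and -0.74 for shNup153-1 with shControl, 0.32 and 0.02 for shNup153-2 with shControl, and -0.09 between the hairpins, so block results there carry no pairing. Across numbers, shNup153-1 replicate 1 correlated with shControl replicates 2 and 4 (0.74 and 0.51). Its replicate 2 correlated with shControl replicates 1 and 3 (0.70 and 0.62). No fit took this grouping into account. Only 2 libraries per hairpin at basal state, the spread between control libraries and counts under 50 for Lcn2, Timp1, Aspg and Steap4 limit what could be detected.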
